A study of Mus musculus with 17 samples.

Results

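The VEGF and angiopoietin genes were followed in mouse kidneys that express the renal carcinoma fusion PRCC-TFE3, with and without the hypoxia-inducible factors. The members are 10 genes chosen by name out of 35971 genes in the files. They are the ligands Vegfa, Vegfb and Vegfc, their receptors Kdr, Flt1 and Flt4, the endothelial junction protein Pecam1, the ligands Angpt1 and Angpt2 and their receptor Tek. The mRNA of whole kidneys of 17 mice was sequenced in 5 groups. All mice carry the lsl-PRCC-TFE3 KI allele, in which a stop cassette holds the fusion silent until Cre removes it. The Cre is driven by the KSP promoter (Cadherin 16), which is active in the renal tubular epithelium, so endothelial cells, podocytes and stroma were not its targets. The 4 Cre(-) mice are KSP-Cre(-), and of these replicates 1 and 2 also carry HIF1af/f while replicates 3 and 4 carry no flox allele. The 3 KI mice are KSP-Cre(+) with no flox allele. The 4 Hif1a KO mice are KSP-Cre(+) with HIF1af/f, the 3 Hif2a KO mice KSP-Cre(+) with HIF2af/f, and the 3 DKO mice KSP-Cre(+) with both floxed genes. The labels give no age.

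The libraries held between 16504419 and 24668827 counts (median 18635282). In Cre(-) kidneys 6 proximal tubule markers summed to between 9719 and 11490 CPM (reads scaled to the size of each library), and to between 675 and 780.8 CPM in KI kidneys. Some libraries stood apart from their group. The proximal tubule sum was 2062 CPM in Hif1a KO replicate 1, against 825 to 1139 CPM in the other Hif1a KO kidneys. It was 1813 CPM in Hif2a KO replicate 1, against 628 and 775.8 CPM in the other Hif2a KO kidneys. KI replicate 2 had 1742 CPM of 6 adipocyte markers against 42.2 and 124 CPM in the other KI kidneys, and KI replicate 3 was the highest of the KI kidneys in 12 of 14 hypoxia targets. Of the targeted genes, Hif1a was at 228, 232 and 184 CPM with the fusion alone, against 163, 193, 189 and 198 CPM with Hif1a lost. Epas1, which encodes HIF2a, was at 173, 192 and 179 CPM with the fusion alone, against 146, 149 and 136.5 CPM with Hif2a lost. Neither difference passed the test (edgeR adjusted p = 0.37 for Hif1a and 0.079 for Epas1). A sum over the transcripts of a gene does not show the loss of a floxed exon in some of the cells, so these values do not check the labels.

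VEGF-A binds the receptors encoded by Flt1 and Kdr on endothelial cells, and Kdr carries most of its growth signal. VEGF-B binds Flt1 alone, and VEGF-C binds Flt4, which is best known for lymphatic vessels, as well as Kdr. Angiopoietin-1 activates the receptor Tek (Tie2) and keeps vessels quiet, while angiopoietin-2 can oppose it. In the kidney, podocytes and tubular cells make VEGF-A for the glomerular and peritubular capillaries, and Vegfa, Flt1, Kdr and Angpt2 are known to respond to hypoxia in various cells.

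The stretch before the transcription start is shown for the ligands of the VEGF receptors, since Vegfb and Vegfc were higher and Vegfa lower with the fusion. The factor TFE3 and its relatives bind the M-box, searched here as TCACATGA, TCACGTGA, TCATATGA and TCATGTGA, a set that covers both strands. Promoters came from RefSeq (GRCm38.p6) and were matched for 7 of the 10 members, with 8 promoters in all. Pecam1, Angpt1 and Angpt2 had no match. In the annotation the files were matched to, Vegfa lies at chr17:46016993-46032369, Vegfb at chr19:6982473-6987651 and Vegfc at chr8:54077606-54187096 (GRCm38). In the 250 bases before the start, an M-box was present in the promoter of Vegfb and in none of the other 7. It lay 70 to 63 bases before the start. Of all 32851 promoters, 1.88% held an M-box in the same window. In these 250 bases the core of the hypoxia response element, ACGTG on either strand, was found in 1 member promoter, at a second start inside Vegfa. It was found in 16.6% of all promoters in the same window. Sequence further from the start was not searched for either motif. A match of letters is not evidence of binding. Capitals mark the M-box, and each sequence runs 5′ to 3′ on the minus strand at chr19:6987652-6987901 for Vegfb, the minus strand at chr17:46032378-46032627 for Vegfa and the plus strand at chr8:54077282-54077531 for Vegfc.
Vegfb: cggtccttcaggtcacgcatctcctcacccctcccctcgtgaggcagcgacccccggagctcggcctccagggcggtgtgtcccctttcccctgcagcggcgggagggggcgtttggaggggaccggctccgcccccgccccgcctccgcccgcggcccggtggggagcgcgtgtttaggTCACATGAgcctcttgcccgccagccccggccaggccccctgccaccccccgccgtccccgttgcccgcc
Vegfa: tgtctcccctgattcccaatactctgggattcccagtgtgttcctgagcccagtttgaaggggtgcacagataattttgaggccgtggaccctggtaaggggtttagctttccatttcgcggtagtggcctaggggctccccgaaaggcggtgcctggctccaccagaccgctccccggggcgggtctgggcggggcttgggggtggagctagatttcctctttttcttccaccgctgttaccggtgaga
Vegfc: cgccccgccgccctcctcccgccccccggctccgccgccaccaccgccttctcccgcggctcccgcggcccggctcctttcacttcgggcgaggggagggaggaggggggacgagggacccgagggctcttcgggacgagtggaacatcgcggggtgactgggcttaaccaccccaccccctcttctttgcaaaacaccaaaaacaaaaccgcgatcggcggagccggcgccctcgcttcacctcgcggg

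The first comparison asks what the fusion does to the axis, in KI against Cre(-) kidneys. Of the 10 members, all tested, 3 rose, namely Vegfb, Vegfc and Flt4, and 6 fell, namely Vegfa, Kdr, Flt1, Angpt1, Angpt2 and Tek. Pecam1 did not pass the test. Among all 17011 genes tested, 31.6% were called higher and 29.3% lower, so that a change in either direction was common. The members' median log2 fold change was -0.51, beside 0.03 over all genes. All fold changes and adjusted p-values (Benjamini-Hochberg, over every gene tested) come from the quasi-likelihood test of edgeR, and each gene's levels are in CPM.

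In Cre(-) kidneys Vegfb measured 60.2, 50.1, 47.9 and 58.4 CPM, against 118, 119 and 116 CPM with the fusion. The groups were far apart and the KI values close together. The rise was 2.18-fold (log2 fold change 1.12 ± 0.11, SE, adjusted p = 5.8e-07). Vegfc, at a much lower level, had 3.91, 2.62, 3.18 and 3.16 CPM in Cre(-) and 6.90, 7.22 and 9.02 CPM in KI kidneys. It rose 2.40-fold with no overlap (log2 fold change 1.26 ± 0.16, adjusted p = 7.6e-06).

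Vegfa had 319, 306, 292 and 314 CPM in Cre(-) and 193, 214 and 315 CPM in KI kidneys. KI replicates 1 and 2 lay below every Cre(-) kidney, and KI replicate 3 lay within the Cre(-) range. The fitted change was -0.36 ± 0.13 (adjusted p = 0.024). The call depended on single kidneys. Without KI replicate 3 the change was -0.60, and without KI replicate 1 or 2 it no longer passed, at -0.22 (adjusted p = 0.15) and -0.28 (adjusted p = 0.12). It also did not pass in a fit of the 2 groups alone (-0.35, adjusted p = 0.092). KI replicate 3, the kidney with the highest Vegfa, also had the highest Adm of the KI group (25.3 CPM against 10.4 and 14.7), the highest Slc2a1 (128 against 62.5 and 68.6) and the highest Ankrd37 (6.79 against 2.76 and 2.37). The part of hypoxia in the Vegfa level of this kidney was not tested.

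**Figure D1:**
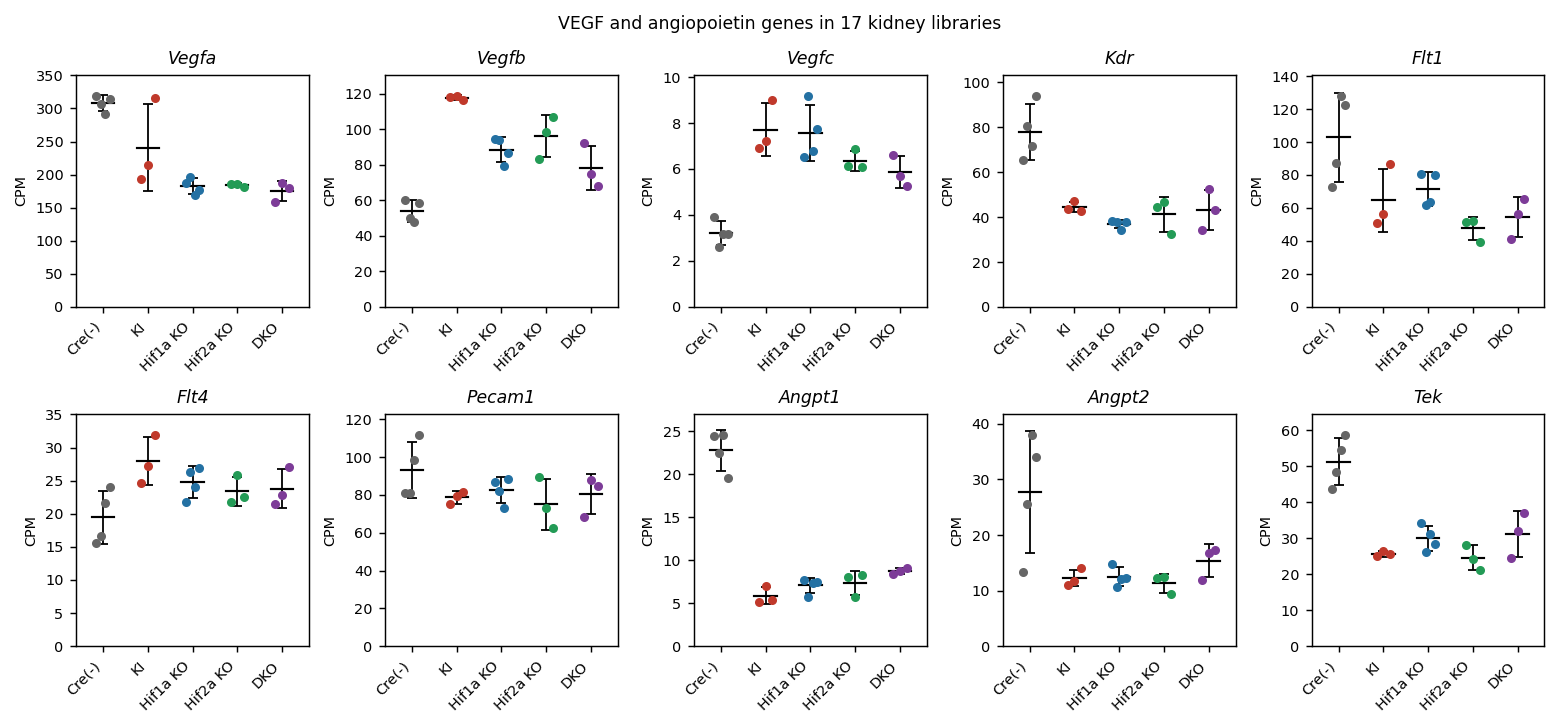
CPM of the 10 genes in each of 17 kidney libraries, by group. Points are libraries, the long bar is the group mean and the error bar its SD (n = 4, 3, 4, 3 and 3 from left to right). Vegfb, Vegfc, Kdr, Angpt1 and Tek separate all Cre(-) kidneys from all others, while Pecam1 overlaps throughout.

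Among the receptors, those of VEGF-A, Kdr and Flt1, fell and Flt4 rose. Kdr had 65.5, 80.6, 71.6 and 94.1 CPM in Cre(-) and 43.6, 47.0 and 42.9 CPM in KI kidneys, with no overlap. Its log2 fold change was -0.81 ± 0.15 (adjusted p = 2.4e-04). Flt1 had 73.0, 87.5, 128 and 122 CPM in Cre(-) kidneys and 51.2, 56.4 and 86.4 CPM in KI kidneys, where replicate 3 was again the highest. The groups overlapped at that library, and the change was -0.67 ± 0.22 (adjusted p = 0.017). Flt1 lost its call without Cre(-) replicate 3 (adjusted p = 0.054), KI replicate 1 (adjusted p = 0.086) or KI replicate 2 (adjusted p = 0.072).

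Flt4 had 15.6, 16.6, 21.6 and 24.0 CPM in Cre(-) and 24.7, 27.2 and 31.9 CPM in KI kidneys. The highest Cre(-) and the lowest KI value lay close together, and the change was 0.52 ± 0.14 (adjusted p = 0.0055). Against only the Cre(-) mice without a flox allele, which had the higher Flt4, it was 0.30 (adjusted p = 0.087). Pecam1, a junction protein of all endothelium, had 81.2, 81.0, 98.4 and 111.7 CPM in Cre(-) and 75.1, 79.7 and 81.4 CPM in KI kidneys. The groups overlapped and the change, -0.24 ± 0.13, did not pass (adjusted p = 0.13).

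All 3 members of the angiopoietin arm fell. Angpt1 had 24.5, 22.4, 24.6 and 19.6 CPM in Cre(-) and 5.17, 7.05 and 5.42 CPM in KI kidneys. This 3.86-fold fall (log2 fold change -1.95 ± 0.16, adjusted p = 6.1e-08) was the largest change of any member, and no library overlapped. Tek, its receptor, had 43.7, 48.3, 54.5 and 58.7 CPM in Cre(-) and 24.9, 26.6 and 25.6 CPM in KI kidneys. It was 2.00-fold lower in KI kidneys (log2 fold change -1.0 ± 0.14, adjusted p = 2.1e-05).

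Angpt2 had 13.3, 25.5, 38.0 and 34.03 CPM in Cre(-) kidneys. Cre(-) replicate 1 was lower than the other Cre(-) kidneys and lay among the KI values of 11.1, 11.8 and 13.98 CPM. The fitted change was -1.17 ± 0.27 (adjusted p = 0.0013). It was -0.66 against the Cre(-) mice with HIF1af/f and -1.55 against those without. Angpt2 lies on chromosome 8 within Mcph1, and Angpt1 on chromosome 15 overlaps Gm17473, in each case on the opposite strand. The libraries were made with a stranded kit (TruSeq Stranded mRNA), but the strand setting of the counting is not given in the sources used here, so whether reads of these pairs were kept apart is not known.

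**Figure D2:**
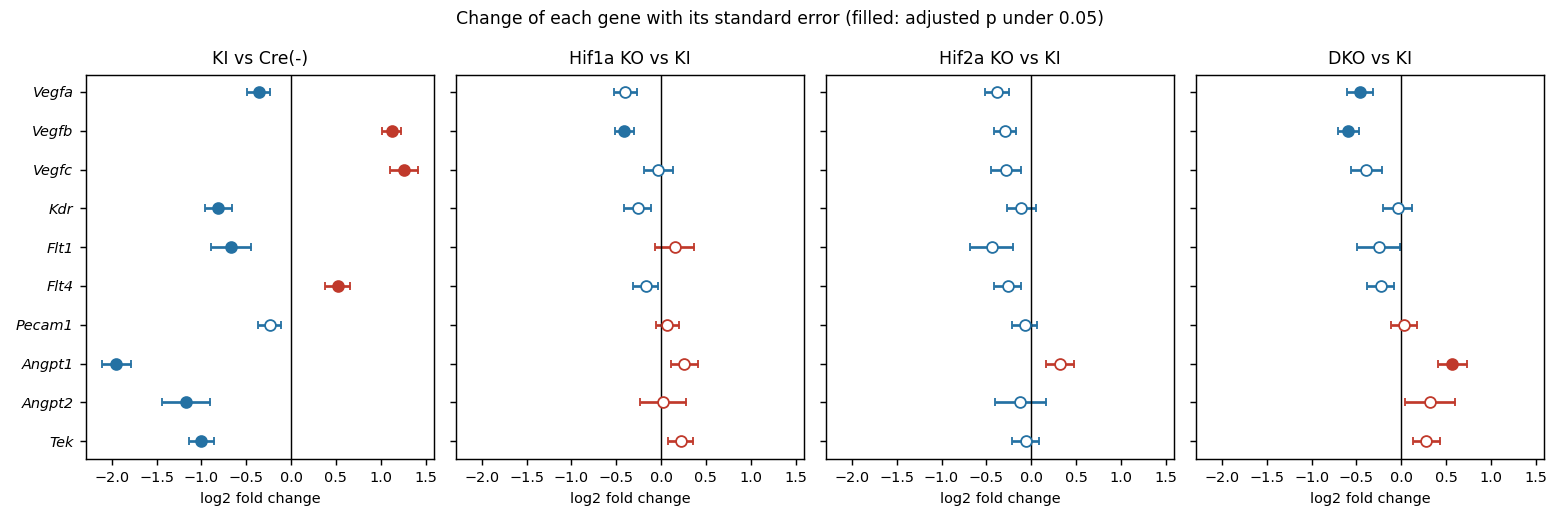
Log2 fold change of each gene in 4 comparisons, from the edgeR fit, with standard errors. Filled points passed the adjusted threshold of 0.05. In KI against Cre(-) kidneys 9 of 10 points are filled, in Hif1a KO against KI 1, in Hif2a KO against KI 0 and in DKO against KI 3.

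Per unit of transcript length (TPM), Vegfa was the most abundant member in both groups, at 199 ± 3.32 in Cre(-) (SD, n = 4) and 214 ± 40.0 in KI kidneys (n = 3). Vegfb came next, at 52.9 ± 3.97 TPM in Cre(-) and 157.5 ± 10.1 in KI kidneys. This order is that of all transcripts. Retained-intron transcripts enter the Vegfa sum, and Vegfa-210 alone held 22.3% to 25.3% of it in KI kidneys. On protein-coding transcripts alone, Vegfa lay below Vegfb in KI replicates 1 and 2 and above it in KI replicate 3. Angpt1 went from 6.03 ± 0.765 to 2.15 ± 0.424 TPM and fell below Vegfc, which went from 1.59 ± 0.236 to 5.56 ± 0.733 TPM. Across the members, then, Vegfc was the least abundant in Cre(-) kidneys and Angpt1 the least abundant in KI kidneys. On the plain TPM scale the median gene itself was 0.477 higher in KI kidneys (log2(TPM + 0.1), limma), and changes have to be read against that shift. There, Vegfa was 0.09 and Pecam1 0.24 in place of -0.36 and -0.24, both below the median gene, and Kdr, Flt1 and Angpt2 no longer passed. With each library centred on its median gene, Vegfa was -0.39 and Pecam1 -0.24, and 9 members were called, as in edgeR.

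**Figure D3:**
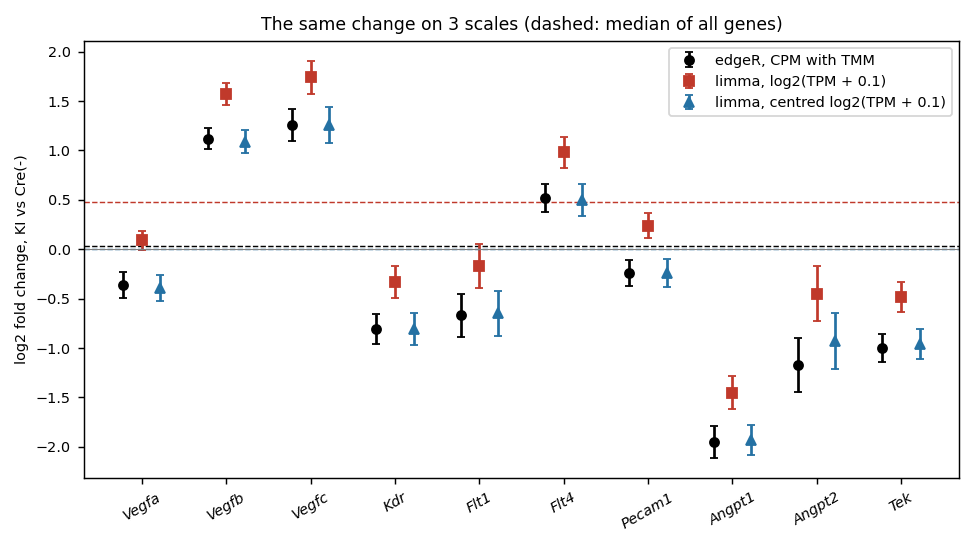
Log2 fold change of KI against Cre(-) kidneys for each gene on 3 scales, with standard errors. Dashed lines give the median of all genes on each scale, which is 0.477 on log2(TPM + 0.1) and close to 0 on the other scales. The points on the plain TPM scale lie above the others for each gene, and those of Vegfa and Pecam1 lie above 0 but below their dashed line.

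The other genes of the pathway were counted from lists. The VEGF ligands and co-receptors outside the members all changed, with 2 of 4 higher and 2 lower. Pgf, a ligand of Flt1, rose from 0.568 to 0.96 CPM in Cre(-) kidneys to 1.72 to 2.48 CPM in KI kidneys (log2 fold change 1.58 ± 0.21). Nrp2, a co-receptor for VEGF-C, rose by 0.80 ± 0.12 on the log2 scale, while Nrp1, a co-receptor for VEGF-A, changed by -0.35 ± 0.07. Vegfd, the other ligand of Flt4, changed by -1.03 ± 0.23. The 2 ligands of Flt4 thus moved in opposite directions.

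Of 4 further genes of the angiopoietin and Tie pathway, 2 rose and 2 fell. Tie1, the orphan partner of Tek, changed by -0.66 ± 0.13 and Ptprb, a phosphatase that acts on Tek, by -0.68 ± 0.15. Angpt4, the remaining angiopoietin, rose by 2.81 ± 0.46 on the log2 scale, from at most 1.01 CPM in Cre(-) to at least 3.61 CPM in KI kidneys. Svep1 rose by 0.43 ± 0.16. Among 14 genes of VEGF receptor signalling and endothelial transcription, 2 rose, 1 fell and 11 did not pass, with a median of 0.16 beside 0.03 over all genes. Klf4 rose by 2.31 ± 0.19 and Plcg1, which acts just downstream of Kdr, by 0.64 ± 0.09, and Sox17 changed by -0.85 ± 0.14. Klf4 and Plcg1 are also made outside endothelium. Among 10 sprouting and tip cell genes, 3 rose and 2 fell, with a median of -0.03. Pdgfb (1.71 ± 0.17), Cxcr4 (1.40 ± 0.31) and Unc5b (0.65 ± 0.20) were higher, and Apln (-1.47 ± 0.18) and Cd34 (-0.84 ± 0.15) lower.

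Of 8 genes of secreted inhibitors of vessel growth, 5 rose and none fell, with a median of 1.2. Thbs2 had a log2 fold change of 2.46 ± 0.25, Serpinf1 of 1.65 ± 0.24, Thbs1 of 1.49 ± 0.20, Adamts1 of 1.41 ± 0.14 and Vash1 of 0.98 ± 0.33. Among 14 hypoxia targets, 4 rose and 5 fell, with a median of 0.07. Hk2, a glycolytic enzyme, had the largest rise (8.03 ± 0.52), followed by Ankrd37 (1.84 ± 0.44), Adm (1.08 ± 0.28) and Pfkfb3. Car9 changed by -2.63 ± 0.34 and Ndrg1 by -1.06 ± 0.28, and Slc2a1 did not pass (0.19 ± 0.22, adjusted p = 0.47). Hif1a itself was higher (0.88 ± 0.13) and Epas1 lower (-0.31 ± 0.09) in KI kidneys.

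Endothelial markers outside the members were counted too. Of these 12, 8 fell and none rose, with a median of -0.60. The lists overlap, as Tie1 and Ptprb are also in the Tie pathway list and Erg in the transcription list. Ehd3, a marker of glomerular endothelium, had the largest change (-1.46 ± 0.17), followed by Esam (-0.90 ± 0.14), Plvap (-0.74 ± 0.16), Ptprb, Tie1 and Eng (-0.65 ± 0.13). Emcn changed by -0.55 ± 0.19. Cdh5, the junction cadherin of all endothelium, did not pass (-0.13 ± 0.14, adjusted p = 0.44), nor did Erg, Robo4 and Cldn5. The 12 markers summed to between 601.6 and 890.3 CPM in Cre(-) and 463 and 512 CPM in KI kidneys. On TPM, where the median gene was also higher in KI kidneys, Cdh5 was at 11.7 to 18.8 in Cre(-) and 17.0 to 21.3 in KI kidneys. Ehd3 was still lower there, at 11.3 to 16.8 and 6.18 to 7.86 TPM. CPM is a share of each library. In whole kidney, fewer endothelial cells, less RNA per endothelial cell and more RNA from other cells cannot be told apart.

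Markers of other cells moved as well. Of 6 podocyte markers 5 fell, among them Podxl (-1.77 ± 0.18) and Wt1 (-1.80 ± 0.28), with summed levels of 658 to 744.7 CPM in Cre(-) and 195 to 274 CPM in KI kidneys. All 6 proximal tubule markers fell, led by the transporters Slc22a6 (-5.30 ± 0.62) and Slc34a1 (-4.98 ± 0.50), as did all 4 thick ascending limb markers, led by Slc12a1 (-3.60 ± 0.40) and Umod (-1.97 ± 0.28). Of 6 mural markers 2 rose (Acta2 and Rgs5) and none fell, with summed levels of 269.6 to 325 CPM and 363 to 447 CPM. Of 6 macrophage markers 5 rose, led by Cd68 (7.87 ± 0.25) and Cd163 (4.14 ± 0.40). Cd68 was at 3.24 to 5.76 CPM in Cre(-) and 1061 to 1151 CPM in KI kidneys. Whether this rise came from macrophages was not tested. Csf1r, the remaining marker, was at 82.8 to 84.6 CPM in KI and 89.2 to 100.9 CPM in Cre(-) kidneys. It was lower without passing in edgeR (adjusted p = 0.06), though DESeq2 called it. Of 6 adipocyte markers 4 were called higher, but for each of them the KI and Cre(-) kidneys overlapped, and the summed level was 42.2, 1742 and 124 CPM in KI replicates 1, 2 and 3 against 6.16 to 95.4 CPM in Cre(-) kidneys. Of the 4 lymphatic markers Lyve1 (3.81 ± 0.55) and Reln (3.12 ± 0.18) rose, Prox1 (-2.21 ± 0.32) fell and Mmrn1 did not pass. Lyve1 is also made by macrophages and Prox1 by tubular cells. The part of any of these cells in the changes of the members was not tested.

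The next question is what the loss of Hif1a, Hif2a or both does in kidneys with the fusion. Few members passed the test. In Hif1a KO against KI kidneys 0 of 10 members were called higher, beside 2.57% of all genes, and 1 lower, beside 2.86%. In Hif2a KO against KI kidneys 0 of 10 members were called in either direction, beside 1.39%. There 2 members had an unadjusted p under 0.05 in edgeR and 0 were called by DESeq2. In DKO against KI kidneys 1 of 10 was called higher, beside 6.53%, and 2 lower, beside 6.19%. These 3 comparisons share the KI kidneys.

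Markers of other kidney cells moved in the same comparisons. Of 4 thick ascending limb markers, 3 were higher in Hif1a KO, 1 in Hif2a KO and 4 in DKO kidneys, where Umod changed by 1.48 ± 0.27, 1.21 ± 0.28 and 1.75 ± 0.29. Of 6 proximal tubule markers, 3 were higher in Hif1a KO and 3 in DKO kidneys, led by Slc22a6 (2.10 ± 0.54 and 2.32 ± 0.56). Their sum was 825 to 2062 CPM in Hif1a KO, 628 to 1813 CPM in Hif2a KO and 1174 to 1674 CPM in DKO kidneys. Replicate 1 was the highest of the Hif1a KO and of the Hif2a KO kidneys. Of the 4 lymphatic markers, Reln was higher in all 3 groups (1.54 ± 0.17, 1.27 ± 0.18 and 1.89 ± 0.18), and in DKO kidneys Prox1 was higher (1.25 ± 0.33) and Lyve1 lower (-2.71 ± 0.56). These markers did not move together, and whether the Reln came from lymphatic vessels was not tested. Of 6 macrophage markers, Cd68 was lower in Hif1a KO (-0.93 ± 0.19) and DKO kidneys (-1.39 ± 0.21) and Adgre1 higher in both (0.70 ± 0.18 and 0.76 ± 0.19), Mrc1 was higher in Hif1a KO (0.60 ± 0.13) and Cd163 lower in DKO kidneys (-1.38 ± 0.37). The mural marker Pdgfrb was higher in DKO kidneys (0.65 ± 0.14), and none of the podocyte or adipocyte markers passed in edgeR, though DESeq2 called 2, 1 and 1 podocyte markers and 1, 0 and 0 adipocyte markers in the order Hif1a KO, Hif2a KO and DKO. At an unadjusted p under 0.05 there were 3, 1 and 2 podocyte and 3, 2 and 2 adipocyte markers. The part of these cells in the members' values was not tested.

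Vegfb was lower in each knockout group. Its levels were 94.6, 93.8, 79.5 and 86.4 CPM in Hif1a KO, 83.4, 98.6 and 106.8 CPM in Hif2a KO, and 92.2, 74.6 and 68.0 CPM in DKO mice. No knockout kidney reached the KI values of 116 to 119 CPM, and none fell to the Cre(-) values. The change was -0.41 ± 0.11 in Hif1a KO (adjusted p = 0.045), -0.29 ± 0.12 in Hif2a KO (adjusted p = 0.21) and -0.59 ± 0.12 in DKO kidneys (adjusted p = 0.008). The Hif1a KO call was near the threshold. It was lost without any single one of the KI kidneys or without Hif1a KO replicate 1, 3 or 4, with changes between -0.37 and -0.44. The DKO call held in each setting that was run.

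Vegfa levels were 187, 196, 169.5 and 177 CPM in Hif1a KO, 186, 186 and 181.5 CPM in Hif2a KO, and 159, 188 and 179.5 CPM in DKO mice. These values were close together, whichever factor was lost, and all but Hif1a KO replicate 2 lay below the lowest KI kidney. The change was -0.40 ± 0.13 in Hif1a KO (adjusted p = 0.076), -0.38 ± 0.13 in Hif2a KO (adjusted p = 0.14) and -0.46 ± 0.14 in DKO kidneys (adjusted p = 0.038). Much of the difference rested on KI replicate 3. Without it the changes were -0.16, -0.14 and -0.21, and the DKO call was lost (adjusted p = 0.17). The DKO call was also lost without any one of the DKO kidneys (adjusted p from 0.079 to 0.11). Without KI replicate 1 the Hif1a KO and Hif2a KO changes passed, at -0.54 (adjusted p = 0.029) and -0.52 (adjusted p = 0.033).

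**Figure D4:**
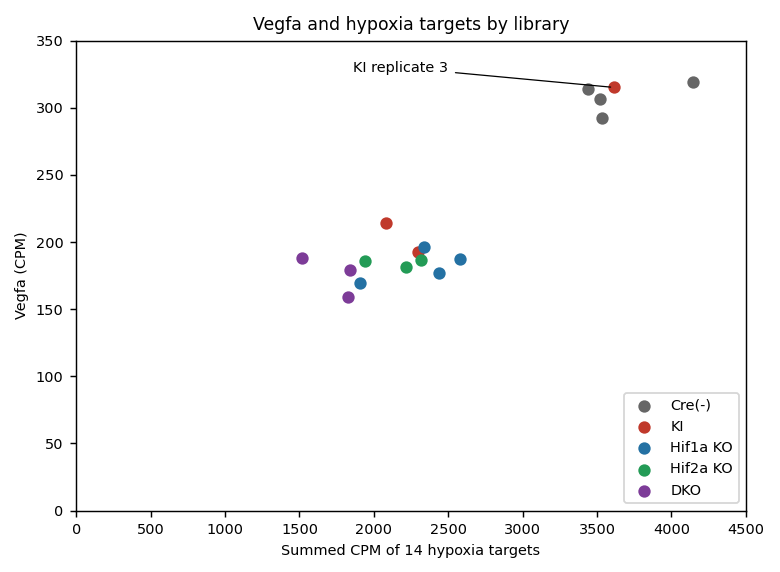
Vegfa CPM against the summed CPM of 14 hypoxia targets in each kidney library, colored by group. KI replicate 3, at 315 CPM of Vegfa and 3615 CPM of hypoxia targets, lies among the Cre(-) kidneys, and the other KI kidneys lie with the knockout groups. Ndrg1 makes up most of the sum in Cre(-) kidneys and in KI replicate 3.

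The sum of the 14 hypoxia targets was 2299, 2081 and 3615 CPM in KI kidneys, and Ndrg1 made up most of the difference (989, 804 and 1941 CPM). In Cre(-) kidneys the sum was 3439 to 4148 CPM, with Ndrg1 at 2307 to 3077 CPM and Hk2 at 1.01 to 2.47 CPM. Hk2 was at 355 CPM in KI replicate 3, so a like sum does not mean a like profile. The sum ranged from 1907 to 2582 CPM in Hif1a KO, 1939 to 2320 CPM in Hif2a KO and 1514 to 1837 CPM in DKO kidneys. In DKO against KI kidneys 5 of the 14 were called lower, namely Ankrd37 (-1.80 ± 0.48), Hk2 (-1.36 ± 0.41), Adm (-1.17 ± 0.30), Bnip3 and P4ha1, and 1 higher, Car9 (1.25 ± 0.35). Slc2a1 did not pass (-0.26 ± 0.24, adjusted p = 0.50). In Hif1a KO kidneys 3 were lower, P4ha1 (-0.79 ± 0.14), Ankrd37 (-1.64 ± 0.43) and Hk2 (-1.37 ± 0.38), and in Hif2a KO kidneys 0 passed (edgeR, with 4 at an unadjusted p under 0.05 and 3 called by DESeq2).

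Vegfc had 6.51, 9.19, 6.77 and 7.73 CPM in Hif1a KO kidneys, which overlapped the KI kidneys (-0.03 ± 0.16, adjusted p = 0.94). It had 6.13, 6.87 and 6.07 CPM in Hif2a KO kidneys (-0.28 ± 0.17, adjusted p = 0.39) and 6.62, 5.69 and 5.27 CPM in DKO kidneys (-0.39 ± 0.17, adjusted p = 0.14). These kidneys all lay below the lowest KI value of 6.90 CPM, but the differences did not pass.

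Angpt1 was the one member higher in DKO kidneys. It had 8.43, 8.69 and 9.13 CPM there, above every KI kidney, with a change of 0.57 ± 0.16 (adjusted p = 0.032). It had 7.71, 5.76, 7.37 and 7.42 CPM in Hif1a KO (0.26 ± 0.15, adjusted p = 0.33) and 7.99, 5.78 and 8.25 CPM in Hif2a KO kidneys (0.32 ± 0.16, adjusted p = 0.30). All remained far below the 19.6 to 24.6 CPM of Cre(-) kidneys. The DKO call was lost without KI replicate 1 or 3 (adjusted p = 0.087 and 0.11) or DKO replicate 2 or 3 (adjusted p = 0.089 and 0.099), and in the fit of the 2 groups alone (adjusted p = 0.085).

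The other members did not pass in any of the 3 comparisons. For Angpt2 the changes were 0.02 ± 0.26, -0.12 ± 0.28 and 0.32 ± 0.28 in Hif1a KO, Hif2a KO and DKO kidneys, the widest errors of the axis. Tek changed by 0.22 ± 0.14, -0.06 ± 0.15 and 0.28 ± 0.15. For Kdr they were -0.26 ± 0.15, -0.11 ± 0.16 and -0.04 ± 0.16. The Hif1a KO kidneys, with 38.4, 37.9, 34.4 and 37.8 CPM, all lay below the KI kidneys, while the Hif2a KO (32.3 to 46.7 CPM) and DKO kidneys (34.3 to 52.4 CPM) overlapped them. Flt4 differed from KI kidneys by -0.17 ± 0.14, -0.26 ± 0.15 and -0.23 ± 0.15, and Pecam1 by 0.07 ± 0.13, -0.07 ± 0.14 and 0.03 ± 0.14. Flt1 levels were 80.7, 61.8, 63.9 and 80.3 CPM in Hif1a KO mice (0.15 ± 0.22), 51.3, 52.2 and 39.6 CPM in Hif2a KO mice (-0.44 ± 0.24), and 41.4, 56.5 and 65.6 CPM in DKO mice (-0.25 ± 0.24).

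Among the other genes of the pathway, Nrp1 was the one VEGF family gene called in DKO against KI kidneys (0.29 ± 0.08, adjusted p = 0.023), and Vegfd, Pgf and Nrp2 did not pass. None of the 4 further Tie pathway genes passed in the 3 comparisons. There edgeR gave 3, 0 and 2 with an unadjusted p under 0.05 in Hif1a KO, Hif2a KO and DKO kidneys, and DESeq2 called 1, 0 and 0. Angpt4 (-1.0 ± 0.45, adjusted p = 0.16) and Tie1 (0.36 ± 0.14, adjusted p = 0.10) did not pass in DKO kidneys. Of the 14 genes of VEGF receptor signalling and endothelial transcription, 1 was higher in Hif1a KO kidneys, 0 passed in Hif2a KO kidneys (edgeR, with 3 at an unadjusted p under 0.05 and 1 called by DESeq2), and 3 were higher and 1 lower in DKO kidneys. Sox17, an endothelial transcription factor, was higher in Hif1a KO (0.63 ± 0.14, adjusted p = 0.022) and DKO kidneys (0.75 ± 0.15, adjusted p = 0.0071). Ets1 (0.60 ± 0.13) and Erg were also higher and Klf4 lower (-0.62 ± 0.19) in DKO kidneys. Of the 12 endothelial markers, 1 was higher in Hif1a KO kidneys (Esam, 0.57 ± 0.14, with 8 at an unadjusted p under 0.05, 3 called by DESeq2 and a median of 0.34), 0 passed in Hif2a KO kidneys (edgeR, with 2 at an unadjusted p under 0.05 and 1 called by DESeq2) and 2 were higher in DKO kidneys (Erg, 0.52 ± 0.16, and Cldn5, 0.53 ± 0.16, with 5 at an unadjusted p under 0.05, 2 called by DESeq2 and a median of 0.26). Cdh5, Emcn and Plvap did not pass in any of them. The summed endothelial markers were 519 to 658.8 CPM in Hif1a KO, 485 to 537.8 CPM in Hif2a KO and 506 to 617 CPM in DKO kidneys. Of the 10 sprouting genes, Apln was lower in Hif1a KO kidneys (-0.73 ± 0.18), and its receptor Aplnr (1.61 ± 0.41) and Cd34 (0.61 ± 0.16) were higher in DKO kidneys. Of the 8 inhibitor genes 0 passed in Hif1a KO and Hif2a KO kidneys (edgeR, with 2 at an unadjusted p under 0.05 in each and 0 and 1 called by DESeq2), and in DKO kidneys Col18a1 was higher (0.50) and Adamts1 lower (-0.49).

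The knockout groups were also set against each other. No member was called in Hif1a KO against Hif2a KO kidneys, beside 0.429% of all genes in either direction, in DKO against Hif1a KO kidneys, beside 0.406%, or in DKO against Hif2a KO kidneys, beside 0.00588%. The counts of members with an unadjusted p under 0.05 in edgeR were 1, 1 and 2, and DESeq2 called 0 in each. Flt1 was the largest difference between the single knockouts. All 4 Hif1a KO kidneys lay above all 3 Hif2a KO kidneys (log2 fold change 0.59 ± 0.22, adjusted p = 0.23), and the other members differed by -0.15 (Kdr) to 0.29 (Tek). In DKO against Hif1a KO kidneys the members differed by -0.40 (Flt1) to 0.31 (Angpt1), and Vegfc (-0.37 ± 0.16, adjusted p = 0.35) was the one with an unadjusted p under 0.05. In DKO against Hif2a KO kidneys Vegfb (-0.30 ± 0.12) and Tek (0.35 ± 0.15) were the members with an unadjusted p under 0.05, and both had an adjusted p of 0.88. The others differed by -0.12 (Vegfc) to 0.44 (Angpt2). The interaction of both losses, that is the effect of Hif1a loss with Hif2a lost minus that with Hif2a present, passed for no member. Its largest values were 0.42 ± 0.38 for Angpt2, 0.33 ± 0.18 for Vegfa and 0.33 ± 0.22 for Kdr (adjusted p = 0.97, 0.91 and 0.91 in edgeR), and those of the other members ran from -0.09 (Vegfc) to 0.20 (Flt4).

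Each knockout group still differed from Cre(-) kidneys in most members. In Hif1a KO kidneys 3 members were higher (beside 31.9% of all genes) and 6 lower (30.1%). In Hif2a KO kidneys 2 were higher (32.0%) and 6 lower (29.9%), and in DKO kidneys 2 were higher (30.4%) and 6 lower (27.9%). These comparisons share the Cre(-) kidneys with one another and with the KI comparison. Vegfb was 1.64-fold, 1.78-fold and 1.45-fold higher than in Cre(-) kidneys, in the order Hif1a KO, Hif2a KO and DKO, against 2.18-fold in KI kidneys. Vegfc was 2.35-fold, 1.98-fold and 1.83-fold higher, against 2.40-fold. Angpt1 was 3.22-fold, 3.10-fold and 2.60-fold lower, against 3.86-fold. Vegfa was 1.69-fold, 1.67-fold and 1.76-fold lower, against 1.28-fold, and here no knockout kidney overlapped a Cre(-) kidney.

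Among the receptors, Kdr was 2.10-fold, 1.89-fold and 1.80-fold lower, and Tek 1.71-fold, 2.09-fold and 1.64-fold lower. Flt1 was 1.43-fold, 2.15-fold and 1.89-fold lower, and the Hif1a KO call (adjusted p = 0.037) was lost without Cre(-) replicate 3 or 4 or Hif1a KO replicate 2 or 3 (adjusted p from 0.09 to 0.12). Flt4 passed in Hif1a KO kidneys (0.35 ± 0.13, adjusted p = 0.034) and not in Hif2a KO (0.27 ± 0.14, adjusted p = 0.12) or DKO kidneys (0.29 ± 0.14, adjusted p = 0.098). The Hif1a KO call was lost without Cre(-) replicate 1 or 2 or Hif1a KO replicate 2 or 4 (adjusted p from 0.078 to 0.11), and without Cre(-) replicate 4 Flt4 passed in Hif2a KO (adjusted p = 0.029) and DKO kidneys (adjusted p = 0.022). Pecam1 passed in none, and was nearest in Hif2a KO kidneys (-0.31 ± 0.13, adjusted p = 0.055), where it passed without Cre(-) replicate 1 or 2 or Hif2a KO replicate 1 (adjusted p from 0.011 to 0.039). Angpt2 was 2.22-fold, 2.44-fold and 1.81-fold lower, and its DKO call (adjusted p = 0.011) was lost without DKO replicate 1 (adjusted p = 0.061). Against only the Cre(-) mice with HIF1af/f, the Angpt2 change in DKO kidneys was -0.33 (adjusted p = 0.27).

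The order of groups by mean level can be read from these tests. For Vegfb it ran from KI (118 ± 1.37 CPM, SD, n = 3) over Hif2a KO (96.3 ± 11.9, n = 3), Hif1a KO (88.6 ± 7.07, n = 4) and DKO (78.3 ± 12.5, n = 3) to Cre(-) kidneys (54.1 ± 6.06, n = 4). KI and Hif2a KO kidneys did not differ past the threshold, nor did any 2 of the knockout groups, while DKO and Cre(-) kidneys did (adjusted p = 8.7e-04). For Angpt1 the order was Cre(-) (22.8 ± 2.34), DKO (8.75 ± 0.354), Hif2a KO (7.34 ± 1.36), Hif1a KO (7.07 ± 0.88) and KI kidneys (5.88 ± 1.02). Only the step from Cre(-) to DKO passed between neighbours (adjusted p = 1.9e-06).

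Transcripts of a gene were described by their share of its TPM, with no test. The reads were single-end reads of 75 nt, so the split between similar transcripts is an estimate. Vegfb gives a longer and a shorter protein by a shift of reading frame, of which the shorter binds heparan sulfate and the longer is soluble. Transcript Vegfb-201, which codes for 207 residues, held 33.2% to 44.3% of Vegfb in Cre(-) and 45.3% to 52.7% in KI kidneys. Its share was 42.6% to 49.0% in Hif1a KO, 46.5% to 54.3% in Hif2a KO and 41.7% to 50.5% in DKO kidneys. KI and Hif2a KO kidneys thus lay above all Cre(-) kidneys, and the other groups overlapped them. Transcript Vegfb-202, with 188 residues, held 52.8% to 64.8% in Cre(-) and 45.4% to 53.7% in KI kidneys.

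Flt1 also gives a truncated protein that lacks the kinase and is secreted as a trap for VEGF. Flt1-202 codes for 1333 residues and Flt1-203 for 688. The shorter form held 27.3% to 29.0% of Flt1 in KI kidneys and 33.0% to 35.4% in Hif1a KO kidneys. It held 26.1% to 30.4% in Hif2a KO, 28.9% to 29.2% in DKO and 27.1% to 34% in Cre(-) kidneys. The Hif1a KO kidneys were above all other kidneys with the fusion, but not above all Cre(-) kidneys. By counts, Kdr, Flt4, Vegfc and Angpt1 were each held almost wholly by 1 transcript, with 99.8%, 99.3%, 98.6% and 99.3%. By TPM, that transcript of Vegfc held 76.2% to 100% in Cre(-) and 67.0% to 100% in KI kidneys. For Vegfa, 61.1% of the counts were in Vegfa-202.

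**Figure D5:**
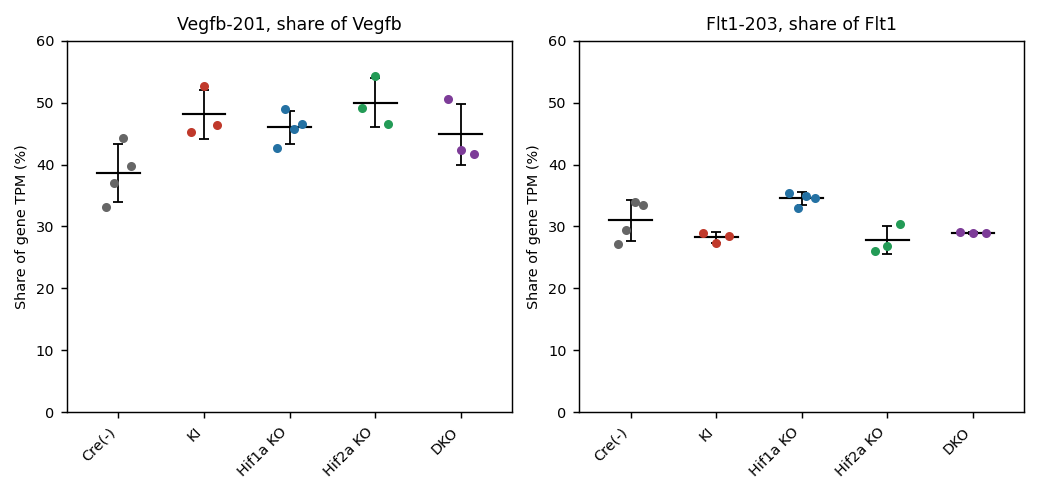
Share of the gene's TPM in Vegfb-201 (left) and Flt1-203 (right), in percent, for each of 17 libraries, with group means and SD. Vegfb-201 lies at 33.2% to 44.3% in Cre(-) and 45.3% to 52.7% in KI kidneys, and Flt1-203 at 33.0% to 35.4% in Hif1a KO against 27.3% to 29.0% in KI kidneys.

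Ratios within a library do not depend on how libraries are scaled. They were compared by exact two-sided permutation tests on log2 ratios of TPM, for 4 ratios in 4 comparisons, and 16 p-values were adjusted together. With 3 against 4 kidneys the smallest p is 0.0571 and with 3 against 3 it is 0.1, so no ratio could pass. Angpt2/Angpt1 was 0.861 to 2.66 in Cre(-) and 2.82 to 4.65 in KI kidneys with no overlap. The log2 difference was 1.04 (exact p = 0.0571, adjusted p = 0.228). In Hif1a KO kidneys the ratio was 2.17 to 2.47, below all KI kidneys (log2 difference -0.52, exact p = 0.0571, adjusted p = 0.228). Both separations rest on TPM. Angpt2-202, with no coding bases, held 21.5% to 40.0% of Angpt2 TPM in KI kidneys, but on average 4.83% of Angpt2 counts. On CPM, KI replicate 2 (Angpt2 11.8, Angpt1 7.05) had a lower ratio than Cre(-) replicate 4 (34.03 and 19.6). That ratio was also lower than in Hif1a KO replicates 1 (14.8 and 7.71) and 2 (10.6 and 5.76), so on CPM the ranges overlapped.

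Kdr/Pecam1 was 0.374 to 0.516 in Cre(-), 0.271 to 0.307 in KI and 0.22 to 0.247 in Hif1a KO kidneys. None of these ranges overlapped, and the log2 differences were -0.57 for KI against Cre(-) and -0.30 for Hif1a KO against KI kidneys (exact p = 0.0571 and adjusted p = 0.228 for each). In Hif2a KO and DKO kidneys it was 0.253 to 0.33 and 0.259 to 0.308, within or around the KI range (exact p = 0.9 and 0.6). Vegfa/Kdr was 12.0 to 16.9 in Cre(-) and 15.4 to 24.8 in KI kidneys, with KI replicate 3 the highest (log2 difference 0.42, exact p = 0.171). Flt1/Kdr was 0.98 to 1.61 in Cre(-) and 1.04 to 1.87 in KI kidneys (log2 difference 0.16, exact p = 0.514), and 1.45 to 1.94 in Hif1a KO kidneys (log2 difference from KI 0.41, exact p = 0.171).

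Finally, the genes most alike were sought for the 3 members whose group means ranged most widely, Angpt1 (1.94 on the log2 CPM scale), Vegfc (1.24) and Angpt2 (1.19). Likeness was the root-mean-square difference of log2 CPM over 17 libraries, each gene set to its Cre(-) mean, and it is a description with no test. Reps2, Flrt1 and Ptprd were nearest to Angpt1, at 0.165, 0.174 and 0.177. For Vegfc the nearest were 1700047I17Rik2 (0.145), S100a10 (0.152) and Plekhf1 (0.154). Angpt2 had no gene as near, with Rbfox1 at 0.249, Tfpi at 0.26 and Tmem72 at 0.27.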

How the data were processed

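RNA of whole mouse kidneys was polyA-selected and sequenced as single-end reads of 75 nt. Per the labels and the study's methods, reads were trimmed with Trim Galore 0.6.6 and cutadapt 2.5, aligned with STAR 2.7.9a and quantified with RSEM. The submitters' processing notes name the builds hg38 and GRCm38. The authors deposited expected counts and TPM per transcript. Of 119353 transcripts, 116770 (97.8%) were matched to GENCODE M21 and summed to 35971 genes. These held 99.04% to 99.24% of each library's counts, and the other 2583 transcripts were not used here. Library totals were 16504419 to 24668827 counts. Expected counts were rounded, genes were kept by filterByExpr (minimum count 10, 17011 genes), libraries were scaled by TMM, and all 17 libraries entered one edgeR 4.0.16 quasi-likelihood fit (R 4.3.3) with a coefficient per group. P-values were adjusted by Benjamini-Hochberg over all genes tested, and the threshold was 0.05. Log2 fold changes are given ± SE. TPM was used for levels between genes, transcript shares and ratios. The ratios were tested by exact two-sided permutation.

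The labels do not say whether same-group kidneys share a litter, so p-values measure the spread between these samples. In edgeR that spread was estimated over all 5 groups together, not from the compared groups alone. In Hif2a KO against KI kidneys this gave 126 genes higher and 110 lower, while the fit of the 2 groups alone gave 1 and 1. Library numbers mostly run with the groups, so effects of their order and of genotype cannot be told apart. The fits were checked on simulated counts in which few genes changed, equally in both directions. That check does not cover the scaling between groups that differ as widely as KI and Cre(-) kidneys. The members and the gene lists were chosen with earlier results of these data known. All members are given in every comparison, by value or, between the knockout groups, by range. List genes are named from those with the largest changes past the threshold (at most 6 a list, fewer for markers of other cells), plus Car9, Slc2a1, Adm, Cdh5, Emcn, Plvap, Tie1, Nrp1, Nrp2, Pgf, Vegfd and Angpt4. Alternatives were DESeq2 1.42.0, its size factors, no filter, a replicate block, limma 3.58.1 on log2 TPM with pseudocounts of 1 and 0.1, fits of the compared groups alone, either kind of Cre(-) mice alone, and each library left out. The TPM scale centred on the median gene was added after seeing the data. Same-gene sums can hold reads of near-identical or overlapping genes.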

Additional observations from a re-analysis of the deposited data

Results flagged for a closer look

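The members' CPM and the ratios were examined in the groups of 4 kidneys, Cre(-) and Hif1a KO. Of 28 such sets of values, 2 held a kidney far from the others, and chance alone gives about 1 in 20. Kdr in Hif1a KO replicate 3 was 34.42 CPM, the lowest of its group, where the others had 38.4, 37.9 and 37.8 CPM. The gap to the nearest was 0.855 of the range of the group. The log2 Angpt2/Angpt1 ratio of Hif1a KO replicate 2 was 1.12, also the lowest of its group, with a gap of 0.926 of the range.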

How the results depend on the processing

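On the plain TPM scales 5 members were called in KI against Cre(-) kidneys with either pseudocount, and Vegfa (0.09) and Pecam1 (0.24) turned positive, as did Pecam1 in Hif1a KO (0.25), Hif2a KO (0.20) and DKO kidneys (0.33 and 0.34) against Cre(-). There, 8843 genes were called higher and 2458 lower on log2(TPM + 1), against 5381 and 4981 in edgeR, as the median gene lay 0.378 higher. Against KI, Kdr in DKO kidneys was 0.02 on both TPM scales. Angpt2 in Hif1a KO kidneys was -0.25 and -0.28 on them, -0.30 on the centred scale and -0.02 with the replicate block. On the centred scale Pecam1 was -0.01 in Hif1a KO and -0.08 in DKO kidneys. Against only the Cre(-) mice with HIF1af/f, Pecam1 in Hif1a KO kidneys was 0.03. In Hif1a KO against KI kidneys 2 members were called by DESeq2 and 0 with no filter, with the replicate block or on log2(TPM + 0.1). In DKO against KI kidneys 1 was called with the block and 1 in the fit of the 2 groups alone. The cause of these differences was not tested.

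The replicate numbers do not pair the kidneys. Deviations of same-numbered kidneys had a median correlation of -0.034 (-0.223 to 0.249, 4 of 31 pairs over 0.1). With the block, the Flt4 change passed in Hif2a KO (0.36) and DKO kidneys (0.38) against Cre(-).

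With each kidney left out in turn, the members called ranged from 7 to 9 in KI, Hif1a KO and DKO and 8 to 9 in Hif2a KO kidneys against Cre(-), from 0 to 1 in Hif1a KO and Hif2a KO and 1 to 3 in DKO kidneys against KI. The log2 changes whose sign turned ranged from -0.14 to 0.10 for Vegfc, -0.07 to 0.12 for Angpt2 and -0.21 to 0.13 for Vegfa/Kdr in Hif1a KO against KI kidneys. In Hif2a KO against KI kidneys they were -0.21 to 0.04 for Kdr, -0.21 to 0.05 for Pecam1, -0.19 to 0.00 for Angpt2, -0.17 to 0.03 for Tek, -0.37 to 0.00 for Vegfa/Kdr and -0.14 to 0.05 for Kdr/Pecam1. In DKO against KI kidneys they were -0.20 to 0.10 for Kdr, -0.40 to 0.02 for Flt1, -0.04 to 0.14 for Pecam1 and -0.37 to 0.06 for Flt1/Kdr. In KI against Cre(-) kidneys Flt1/Kdr ranged from -0.11 to 0.32. The number of kidneys and the low counts of Vegfc, Angpt1 and Angpt2 limit the precision.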
